A study of Mus musculus with 6 samples.

Results

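The genes described here encode the machinery that carries newly made proteins into the endoplasmic reticulum (ER), gives them their first sugar chains and loads them into transport vesicles. The list holds 54 genes, and 52 of them had at least 1 probe set annotated to that gene alone, for 115 probe sets in all. A gene's value is that of its brightest such probe set by mean signal across all 6 arrays, and 18193 genes could be read in this way. Srp54a and Sec61g were matched only by probe sets shared with other symbols and were not analysed here.

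The study compared cultured primary mouse myoblasts, precursors of skeletal muscle fibres, on an Affymetrix whole-genome expression array. The 3 control arrays carried RNA of primary myoblasts, and the 3 shRNA arrays carried RNA of primary myoblasts infected with lentivirus encoding a short hairpin RNA (shRNA) against LncMyoD in the Tet-pLKO-puro vector. All samples are labelled 21 days old, and the labels give neither the virus of the controls, nor an inducer, nor whether cells were taken in growth or differentiation medium. LncMyoD, a long non-coding RNA, was not read here, so its knockdown was not checked. The samples are called biological replicates, with no word on whether animals or cultures were separate, and p-values therefore cover no more than array-to-array spread, possibly a technical one.

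A ribosome that starts to make a secreted or membrane protein is recognised by the signal recognition particle (SRP) and docked through its receptor onto the SEC61 channel of the ER membrane. Beside the channel sit the TRAP complex, signal peptidase, which removes the signal peptide, and the oligosaccharyltransferase, which transfers a preassembled glycan to asparagine residues. Folded cargo leaves the ER in COPII-coated vesicles, and escaped residents and cargo receptors come back in COPI-coated ones. Myoblasts use this route for receptors, adhesion molecules and extracellular matrix.

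The promoters of several of these genes share a short element. The regulators Tfe3, Xbp1 and Creb3l1, described last, belong to families that bind it or its core. Action of these factors through the element was not tested. ACGTGGC is known as the Golgi stress response element of the transcription factor TFE3, and its ACGTG core is also found in sites of XBP1 and the ATF6 and CREB3 families. RefSeq promoters (GRCm38.p6) were found for 43 of the 54 genes. In the 250 bases before the transcription start, ACGTGGC occurred on either strand in 10 of the 43 (23.3%), in 631 of 27025 genes with a promoter in the table (2.33%) and in 358 of 10023 genes that also passed the signal filter (3.57%). The longer ER stress elements were not found in the 43: ERSE (CCAAT and, after 9 bases, CCACG, on either strand) occurred in 35 of the 27025 genes (0.13%), and ERSE-II (ATTGG and, after 1 base, CCACG) in 10 (0.037%). The 10 promoters with a match were those of Srprb, Sec63, Ssr1, Ssr3, Spcs1, Sec24c, Sec24d, Sar1a, Kdelr3 and Mcfd2. The last 100 bases of the Sec24c and Sec24d promoters lie inside the annotated span of the gene, and those of Spcs1 overlap the gene Glt8d1. For 4 of them, chosen to cover the SRP receptor, the translocon, TRAP and retrieval, the 100 bases before the start are given 5′ to 3′ on the gene's strand, with the match in capitals (GCCACGT is ACGTGGC on the other strand). They lie at chr9:103202066-103202165 (minus strand, Srprb), chr10:42761396-42761495 (plus, Sec63), chr13:37994209-37994308 (minus, Ssr1) and chr15:79516308-79516407 (plus, Kdelr3).
Srprb: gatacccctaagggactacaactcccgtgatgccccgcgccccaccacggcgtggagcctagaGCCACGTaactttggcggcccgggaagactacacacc
Sec63: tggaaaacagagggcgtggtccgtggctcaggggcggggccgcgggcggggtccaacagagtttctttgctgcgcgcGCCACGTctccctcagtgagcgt
Ssr1: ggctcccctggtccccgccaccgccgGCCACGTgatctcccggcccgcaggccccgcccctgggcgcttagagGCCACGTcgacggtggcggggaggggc
Kdelr3: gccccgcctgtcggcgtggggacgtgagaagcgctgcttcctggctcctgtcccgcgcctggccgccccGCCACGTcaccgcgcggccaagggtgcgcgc

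Ssr1 held 2 matches in this window. Of the 10 genes with the element, 5 fell with the shRNA, 1 rose and 4 did not pass the test described next. Of the 31 genes with a promoter, a value and no match, 14 fell, 3 rose and 14 did not pass. Over all genes tested, 22.8% were lower and 35.7% higher, and no test was made of the element.

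Over all 45101 probe sets the median of control array 1 was 7.23 on the log2 scale. Over the 27023 bright enough to be tested the median was 9.38 to 9.46 on control arrays and 9.48 on shRNA arrays. The arrays correlated at 0.996 to 0.997 within a group and 0.987 to 0.990 between groups. The muscle markers Myod1 (13.80 in controls, 13.82 with the shRNA) and Des (13.22 and 13.26) were bright. By the limma test described below, 8 of 12 muscle markers (66.7%) were called, in both directions, against 58.5% of all genes tested. The precursor markers Pax7 (0.66), Myf5 (0.62) and Cdh15 (0.40) were higher, and the differentiation markers Mymk (-0.24), Myh3 (-0.15), Tnnt1 (-0.14), Myog (-0.13) and Acta1 (-0.088) were lower; their part in the results below was not tested. The log2 of the mean signal of 12 muscle genes was 13.34 to 13.40 on control arrays and 13.31 to 13.35 on shRNA arrays. All 7 endothelial and all 3 adipocyte markers lay under the signal filter. The same measure ran for the fibroblast list from 9.72 to 9.83 and from 9.78 to 9.86, with 4 of its 8 genes under the filter, the leukocyte list from 6.32 to 6.39 and from 6.26 to 6.45, and the neural list from 7.23 to 7.28 and from 6.85 to 7.01. Inside the fibroblast list Col1a1 went from 7.18 to 6.76 and Pdgfra from 6.63 to 7.51. The log2 3′-to-5′ ratio of the control probe sets, a measure of RNA integrity, was higher on the shRNA arrays, at 0.51 ± 0.018 against 0.55 ± 0.017 for actin and 0.14 ± 0.045 against 0.23 ± 0.038 for GAPDH (SD, n = 3; exact permutation test, two-sided, p = 0.1, the smallest that 20 assignments allow). Its part in the results below was not tested. In bulk RNA, fewer cells of a type and less RNA per cell cannot be told apart.

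Of the 52 secretory pathway genes, 24 fell and 5 rose with the shRNA (limma, Benjamini-Hochberg adjusted p under 0.05 over all 27023 probe sets tested), and 23 did not pass. Among all 12408 genes tested, 58.5% were called, 35.7% higher and 22.8% lower. The share of secretory genes called, 55.8%, was thus near that background, while their split ran the other way, with 46.2% lower and 9.62% higher. The 3 control and 3 shRNA arrays did not overlap for 31 of the 52 genes (59.6%), against 64.7% of all genes. With the median of the tested probe sets brought to 1 level on every array ("centred" arrays), 30 of the 52 fell and 1 rose, and all genes split into 29.6% lower and 29.2% higher.

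The changes were small. The median difference (shRNA minus control) was -0.081 over the 52 genes and 0.045 over all genes, and the median size was 0.13 against 0.21. None of the 52 was called with a change of at least 2-fold, a size that 3.75% of all genes reached. Most of these genes were bright, with 39 of 52 in the brightest of 4 equal bins of tested genes, with mean signals from 11.81 to 14.55. In that bin 57.6% of all genes were called, with a median size of 0.12, and 20 of the 39 secretory genes were called, with a median size of 0.10.

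**Figure D1:**
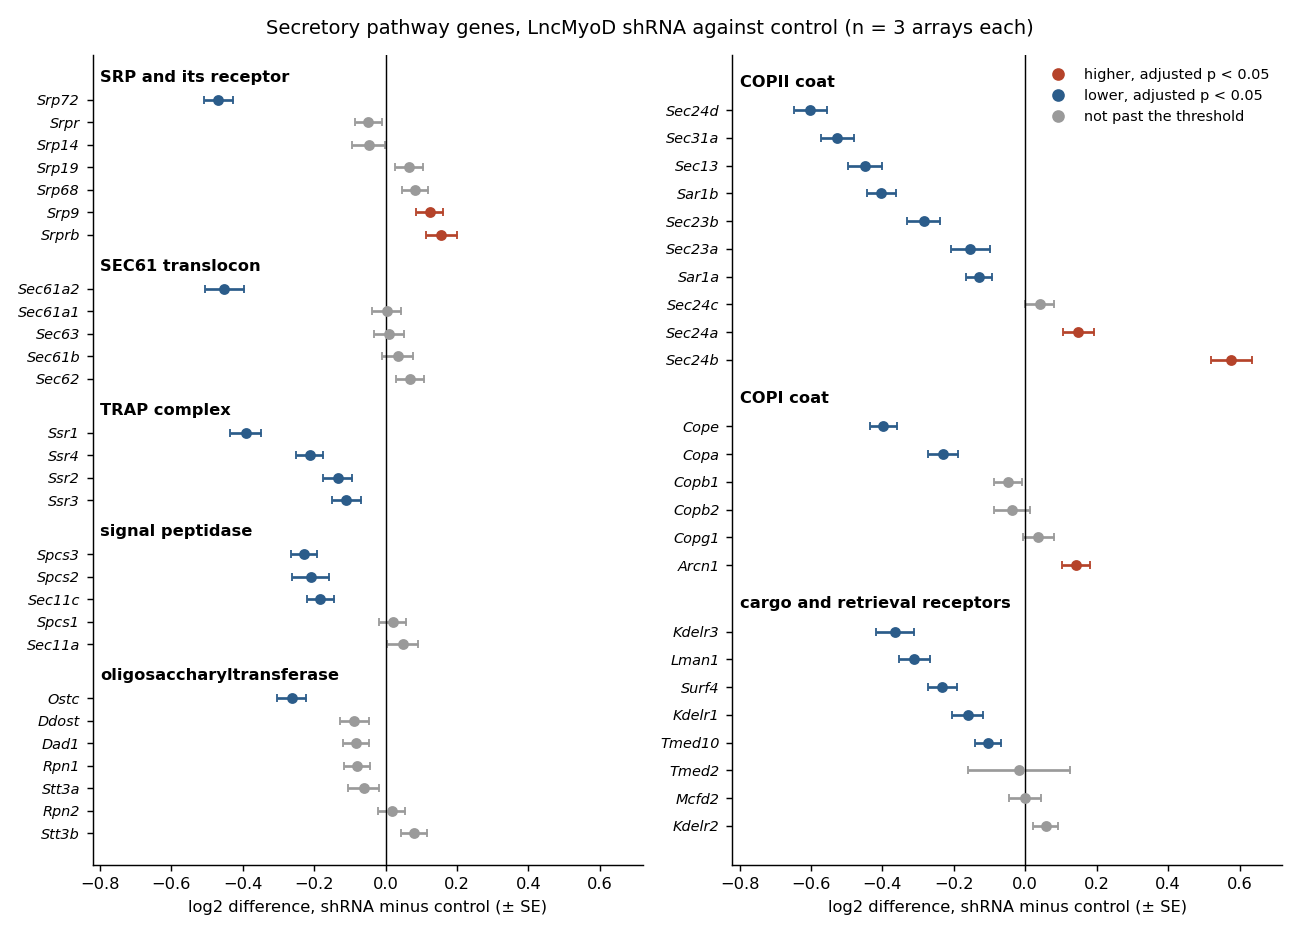
Difference in log2 signal (shRNA minus control, horizontal axis, bars ± SE, 3 arrays a group) for the 52 secretory pathway genes, grouped by role and coloured by the limma call. Sec24d (-0.60) and Sec31a (-0.53) lie farthest to the left and Sec24b (0.58) farthest to the right.

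Among 7 SRP and SRP receptor genes, 2 rose, 1 fell and the rest did not pass. Srp72, which with Srp68 forms the large protein pair of the particle, read 11.88, 11.84 and 11.83 on the control arrays and 11.39, 11.35 and 11.40 on the shRNA arrays. The groups lay far apart relative to their spread, 11.85 ± 0.024 against 11.38 ± 0.025 (SD, n = 3), and Srp72 fell by 0.47 (SE 0.040, 1.38-fold, limma adjusted p = 6.94e-07). Its partner Srp68 differed by 0.083 in the other direction without passing (adjusted p = 0.0695), and passed only without control replicate 1 (0.10, adjusted p = 0.0406). Srprb, the membrane-anchored receptor subunit, read 11.30, 11.30 and 11.23 in controls and 11.40, 11.42 and 11.47 with the shRNA. It rose by 0.16 (SE 0.043, limma adjusted p = 0.0081), and by 0.50 by a dimmer probe set without overlap, while the remaining probe set did not pass (0.072). With centred arrays the calls of Srprb (0.092, adjusted p = 0.0674) and of Srp9 (0.059, 0.138), described next, were lost. Srp9, which binds the Alu domain of SRP RNA, read 13.21, 13.12 and 13.10 against 13.24, 13.31 and 13.25 and rose by 0.12 (SE 0.039, limma adjusted p = 0.0165). The Srp9 call was also lost without control replicate 2 (0.11, adjusted p = 0.059), control replicate 3 (0.10, 0.076) or shRNA replicate 2 (0.10, 0.0881). Srp14 (-0.048), Srp19 (0.067) and the receptor subunit Srpr (-0.049) did not pass.

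At the SEC61 channel, 1 of the paralogs of the pore-forming alpha subunit fell. The shift of their ratio is tested with the other pairs below. Sec61a2 read 11.72, 11.68 and 11.61 on the control arrays and 11.13, 11.19 and 11.33 on the shRNA arrays, with no overlap. It fell by 0.45 (SE 0.055, 1.37-fold, limma adjusted p = 1.62e-05), from 11.67 ± 0.056 to 11.22 ± 0.10 (SD, n = 3). Sec61a1, the widely expressed copy, read 12.04, 11.96 and 11.98 against 11.95, 12.01 and 12.03. Its groups overlapped, and its difference of 0.0031 had a 95% interval from -0.086 to 0.092 (adjusted p = 0.958). A dim Sec61a1 probe set was lower, however (-0.32, limma adjusted p = 0.0216), and its 2 other tested probe sets did not pass. Sec61b (0.034) and the channel partners Sec62 (0.067) and Sec63 (0.0095) did not pass either. Sec62 passed without shRNA replicate 1 (0.10, limma adjusted p = 0.037) and when read by a probe set not marked as shared (0.16, 0.00759). By the brightest probe sets, 1 of the 5 channel genes fell and none passed as higher.

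All 4 TRAP subunits passed as lower, against 22.8% of all genes tested, but the calls of Ssr2 and Ssr3 were not stable. TRAP, the translocon-associated protein complex, helps some signal peptides to open the channel and is also needed for full glycosylation. Ssr1, its alpha subunit, read 13.75, 13.61 and 13.67 in controls and 13.21, 13.32 and 13.32 with the shRNA. The highest shRNA array lay below the lowest control array, and Ssr1 fell by 0.39 (SE 0.043, 1.31-fold, limma adjusted p = 5.89e-06), from 13.68 ± 0.066 to 13.29 ± 0.062 (SD, n = 3). Ssr4, the delta subunit, read 12.92, 12.82 and 12.83 against 12.62, 12.65 and 12.65 and fell by 0.21 (SE 0.038, limma adjusted p = 0.000418). Ssr2, the beta subunit, read 12.62, 12.62 and 12.52 against 12.43, 12.48 and 12.45 and fell by 0.13 (SE 0.040, limma adjusted p = 0.0123). Without control replicate 2 its value was -0.12 (adjusted p = 0.0519). The Ssr2 call was also lost when limma was fitted without a variance trend (adjusted p = 0.0611). Ssr3, the gamma subunit, differed by -0.11 (SE 0.040, limma adjusted p = 0.0346) and was the least stable of the 4. It did not pass without control replicate 1 (-0.092, adjusted p = 0.0908), control replicate 3 (-0.12, 0.0722), shRNA replicate 1 (-0.069, 0.141) or shRNA replicate 2 (-0.12, 0.0618). Nor did Ssr3 pass without a variance trend (limma adjusted p = 0.135), with the replicate number as a block (0.0852) or with the mean of its probe sets (0.162).

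Of the 5 signal peptidase genes 3 fell and none rose. Spcs3, an accessory subunit needed for activity, read 12.36, 12.33 and 12.36 in controls and 12.12, 12.16 and 12.08 with the shRNA, and fell by 0.23 (SE 0.038, limma adjusted p = 0.000209). Sec11c, 1 of the alternative catalytic subunits, read 12.75, 12.67 and 12.66 against 12.52, 12.50 and 12.52 and fell by 0.18 (SE 0.038, limma adjusted p = 0.00118). Spcs2 read 12.44, 12.32 and 12.28 against 12.05, 12.16 and 12.20 and fell by 0.21 (SE 0.052, limma adjusted p = 0.00397). None of these overlapped between groups. The other catalytic subunit, Sec11a, read 12.75, 12.70 and 12.60 against 12.68, 12.77 and 12.74, which overlap, and its difference of 0.047 (95% interval -0.049 to 0.14) did not pass. Neither did Spcs1 (0.020).

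By the brightest probe sets, 1 of 7 oligosaccharyltransferase genes passed, while other probe sets of Rpn1 and Stt3a were lower. Ostc, the subunit that ties the STT3A form of the enzyme to the translocon, read 12.70, 12.65 and 12.59 in controls and 12.36, 12.43 and 12.37 with the shRNA. It fell by 0.26 (SE 0.040, 1.20-fold, limma adjusted p = 0.00012), from 12.65 ± 0.053 to 12.38 ± 0.041 (SD, n = 3). The catalytic subunits did not pass by their brightest probe sets. Stt3a, which works during translocation, read 13.80, 13.67 and 13.73 against 13.60, 13.66 and 13.75 (difference -0.062, 95% interval -0.16 to 0.034). With the mean of its probe sets it was lower (-0.19, limma adjusted p = 0.00234). Stt3b, which also glycosylates sites skipped by STT3A, read 13.24, 13.17 and 13.20 against 13.23, 13.31 and 13.30 (difference 0.079, limma adjusted p = 0.0857), and passed without control replicate 1 (0.097, 0.0498) or shRNA replicate 1 (0.11, 0.0364). The shared subunits Rpn1 (-0.079, limma adjusted p = 0.0859), Ddost (-0.087, 0.083) and Dad1 (-0.082, 0.0751) lay just outside the threshold, and Rpn2 (0.017) did not pass. With arrays centred on their median Rpn1 (-0.14), Ddost (-0.15), Dad1 (-0.15) and Stt3a (-0.13) passed, and Ddost also did without control replicate 3 (-0.12, adjusted p = 0.0222). Rpn1 also passed when read by a probe set not marked as shared (-0.18, limma adjusted p = 0.00582).

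**Figure D2:**
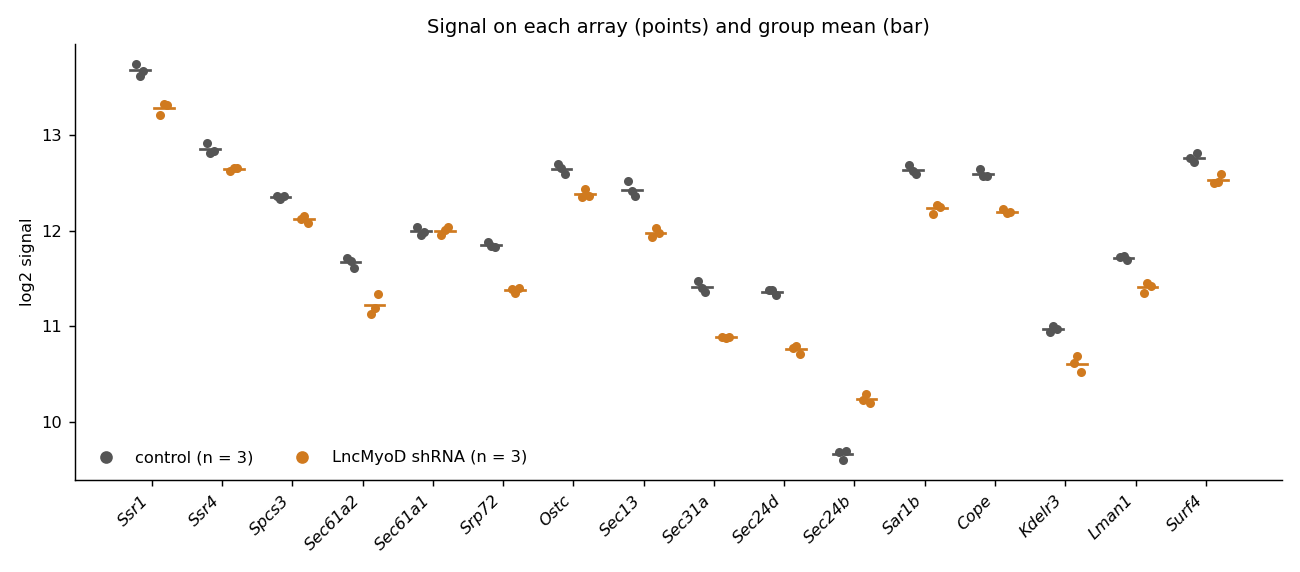
Log2 signal of 16 of these genes on each of the 3 control (grey) and 3 shRNA arrays (orange), with a bar at each group mean. The groups overlap for Sec61a1, the shRNA arrays lie higher for Sec24b, and they lie lower for the other genes drawn.

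By the brightest probe sets, the largest differences were in the COPII coat, where 7 of the 10 members fell and 2 rose. Dimmer probe sets of the TRAP gene Ssr1 fell by more than any COPII probe set (-0.77, -0.83 and -0.86). The coat has an inner layer of SEC23 and SEC24, recruited by the GTPase SAR1, and an outer cage of SEC13 and SEC31. Sec24d, a cargo-binding SEC24 paralog, read 11.38, 11.37 and 11.32 on the control arrays and 10.77, 10.79 and 10.71 on the shRNA arrays. The gap exceeded the spread within either group, 11.36 ± 0.032 against 10.76 ± 0.044 (SD, n = 3), and Sec24d fell by 0.60 (SE 0.046, 1.52-fold, limma adjusted p = 2.3e-07). Both cage genes fell as well. Sec31a read 11.47, 11.39 and 11.36 in controls and 10.88 on each shRNA array, a fall by 0.53 (SE 0.045, 1.44-fold, limma adjusted p = 7.44e-07). Sec13, also a subunit of the nuclear pore, read 12.52, 12.41 and 12.36 against 11.93, 12.03 and 11.98 and fell by 0.45 (SE 0.047, limma adjusted p = 4.12e-06).

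Sar1b, the GTPase paralog associated with the export of lipoproteins, read 12.68, 12.62 and 12.59 against 12.17, 12.27 and 12.25 and fell by 0.40 (SE 0.042, limma adjusted p = 3.62e-06). Its paralog Sar1a read 13.37, 13.31 and 13.28 against 13.17, 13.18 and 13.22 and fell by 0.13 (SE 0.036, limma adjusted p = 0.00809). The Sar1a call was lost without a variance trend (limma adjusted p = 0.057). Sec23b, 1 of the paralogs of the SAR1 GTPase activator, read 11.54, 11.54 and 11.44 against 11.18, 11.26 and 11.22 and fell by 0.28 (SE 0.046, limma adjusted p = 0.000188). Those 3 genes had no overlap between groups. The other SEC23 paralog, Sec23a, read 13.15, 13.04 and 13.07 against 12.80, 12.94 and 13.05, which overlap. Its difference of -0.15 (limma adjusted p = 0.0325) did not pass without control replicate 1 (-0.12, adjusted p = 0.0978), control replicate 3 (-0.16, 0.0701), shRNA replicate 1 (-0.088, 0.139) or shRNA replicate 2 (-0.16, 0.0671). With the replicate number as a block it was -0.15 as well (0.0587).

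SEC24 paralogs went in different directions. Sec24b read 9.68, 9.59 and 9.69 in controls and 10.22, 10.28 and 10.19 with the shRNA, from 9.66 ± 0.054 to 10.23 ± 0.046 (SD, n = 3). It rose by 0.58 (SE 0.058, 1.49-fold, limma adjusted p = 2.96e-06), while Sec24d fell. Sec24a, the closest paralog of Sec24b, read 12.34, 12.28 and 12.43 against 12.47, 12.53 and 12.49, which do not overlap. It rose by 0.15 (SE 0.043, limma adjusted p = 0.0111), a call lost without control replicate 2 (0.11, 0.059) or shRNA replicate 2 (0.13, 0.0522) and with centred arrays (0.084, 0.162). Sec24c, the closest paralog of Sec24d, read 11.44, 11.47 and 11.43 against 11.46, 11.50 and 11.49 and differed by 0.041 (95% interval -0.047 to 0.13, adjusted p = 0.426).

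In the COPI coat, 2 of 6 genes fell and 1 rose. Cope, the epsilon subunit of coatomer, read 12.65, 12.57 and 12.57 in controls and 12.22, 12.18 and 12.19 with the shRNA. It fell by 0.40 (SE 0.038, 1.32-fold, limma adjusted p = 1.8e-06), from 12.60 ± 0.043 to 12.20 ± 0.023 (SD, n = 3). Copa, the alpha subunit, read 12.71, 12.59 and 12.68 against 12.40, 12.43 and 12.46 and fell by 0.23 (SE 0.041, limma adjusted p = 0.000381). Arcn1, the delta subunit, read 12.74, 12.60 and 12.67 against 12.79, 12.82 and 12.82 and rose by 0.14 (SE 0.040, limma adjusted p = 0.00923). Its direction depended on the probe set, as described below, and it did not pass without control replicate 2 (0.11, adjusted p = 0.0504) or with centred arrays (0.078, 0.0899). Copb1 (-0.048), Copb2 (-0.038) and Copg1 (0.036) did not pass.

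Of 8 cargo and retrieval receptors 5 fell and none rose. Kdelr3, 1 of the KDEL receptors that return ER residents, read 10.93, 11.00 and 10.97 on the control arrays and 10.61, 10.69 and 10.52 on the shRNA arrays. It fell by 0.36 (SE 0.054, 1.29-fold, limma adjusted p = 8.13e-05), from 10.97 ± 0.033 to 10.60 ± 0.086 (SD, n = 3). Kdelr1 read 12.57, 12.50 and 12.46 against 12.33, 12.30 and 12.42 and fell by 0.16 (SE 0.043, limma adjusted p = 0.00697). Both receptors had groups that did not overlap, whereas Kdelr2, at 13.62, 13.55 and 13.54 against 13.59, 13.64 and 13.64, overlapped and differed by 0.057 (95% interval -0.018 to 0.13). Lman1, the ERGIC-53 lectin that carries glycoproteins out of the ER, read 11.73, 11.73 and 11.69 against 11.34, 11.45 and 11.42 and fell by 0.31 (SE 0.044, limma adjusted p = 5.7e-05). Its cofactor Mcfd2 had the same mean in both groups (11.59, 95% interval of the difference -0.096 to 0.095). Surf4, a receptor for soluble cargo, read 12.76, 12.72 and 12.82 against 12.49, 12.51 and 12.59 and fell by 0.23 (SE 0.041, limma adjusted p = 0.000361). Tmed10, a p24 family protein, differed by -0.10 (SE 0.037, limma adjusted p = 0.0302). It did not pass without control replicate 1 (-0.095, 0.0619), control replicate 3 (-0.097, 0.0836), shRNA replicate 1 (-0.10, 0.0637) or shRNA replicate 3 (-0.085, 0.112). Its partner Tmed2 was dim, at 6.64 ± 0.16 and 6.62 ± 0.22 (SD, n = 3), near the filter at 6.50, and did not pass.

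**Figure D3:**
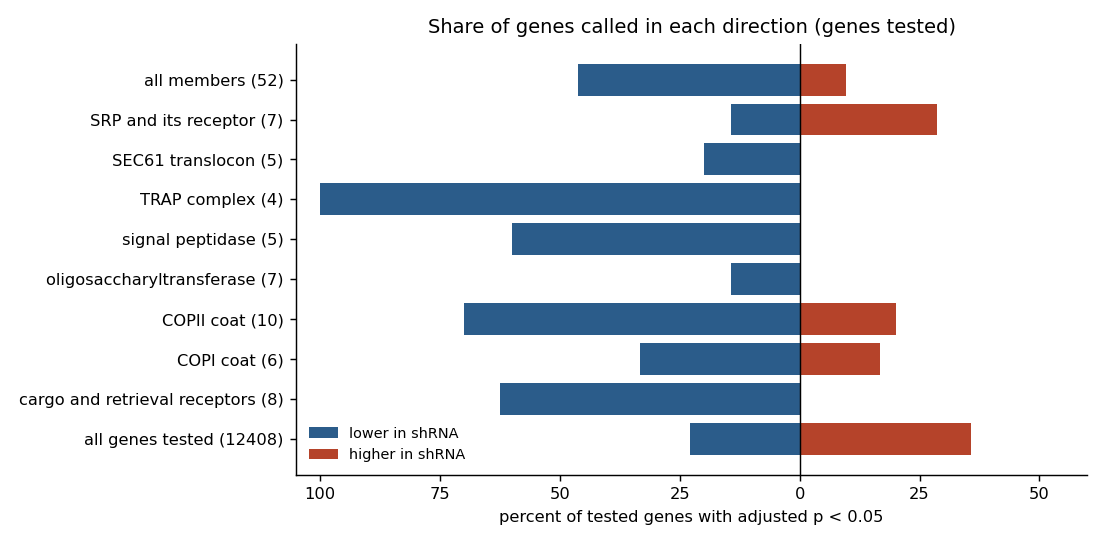
Percent of the tested genes in each role that were lower (bars to the left of 0) or higher (bars to the right) with the shRNA, limma adjusted p under 0.05, with the number of genes tested in parentheses. All 4 TRAP genes are lower, 7 of 10 COPII genes are lower and 2 higher, and the oligosaccharyltransferase and SEC61 rows each hold 1 lower gene. The row for all genes tested shows 22.8% lower and 35.7% higher.

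Because many of these proteins have a paralog or a direct partner, the change of the log2 ratio of 11 pairs was computed on each array and tested by exact permutation over the 6 arrays (two-sided). The ratio did not overlap between groups for 8 of the 11 pairs, each at an exact p = 0.1, the smallest that 20 assignments allow, or 0.1375 after Benjamini-Hochberg adjustment over the 11. This design could not reach 0.05. Of all genes tested, 64.7% did not overlap when read singly, and no such share was computed for ratios of other gene pairs. The largest shifts were those of Sec24c over Sec24d (0.64, or 0.37 with the mean of each gene's probe sets), Sec61a1 over Sec61a2 (0.45), Sec24a over Sec24b (-0.43) and Kdelr2 over Kdelr3 (0.42). Smaller ones were those of Sar1a over Sar1b (0.27), Sec11a over Sec11c (0.23), Kdelr1 over Kdelr2 (-0.22) and Stt3a over Stt3b (-0.14). The groups overlapped for Sec23a over Sec23b (0.13, exact p = 0.2), Sec62 over Sec63 (0.058, p = 0.4) and Copb1 over Copb2 (-0.010, p = 0.9).

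**Figure D4:**
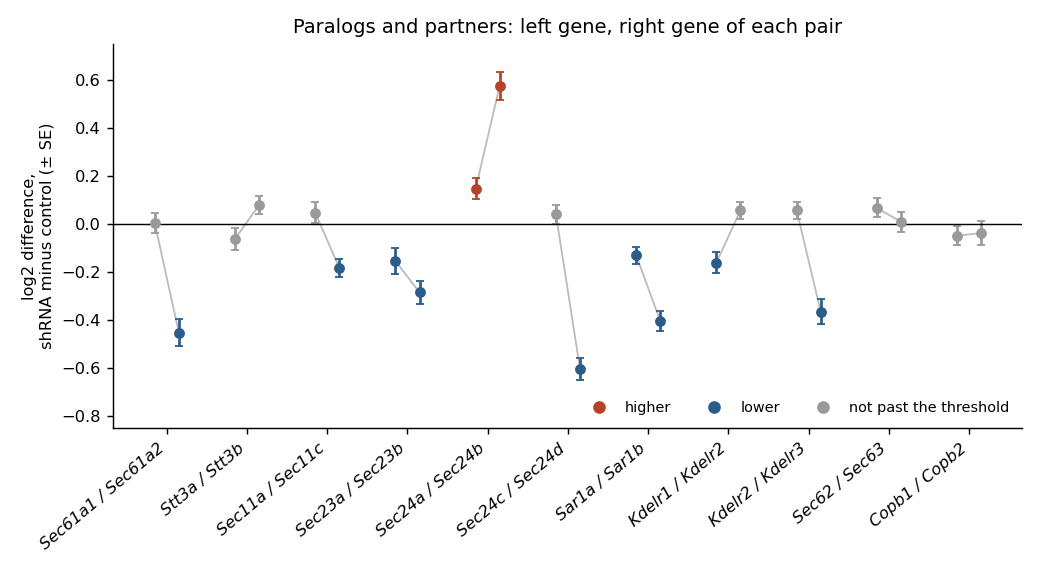
Difference in log2 signal (shRNA minus control, vertical axis, bars ± SE, 3 arrays a group) of both genes of 11 pairs, joined by a line and coloured by the limma call. The line is steepest for Sec24c over Sec24d, 0.041 against -0.60, and nearly level for Copb1 over Copb2.

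Several genes had more than 1 probe set, which read different stretches of the transcript. Of the 29 genes called, 17 had another tested probe set. In 8 of these every other probe set was called in the same direction, in 8 at least 1 other did not pass, and in 1, Arcn1, the others were called in the opposite direction (-0.13 and -0.19). The 3 other Ssr1 probe sets fell by more than the brightest one, at -0.77, -0.83 and -0.86. Those of Ssr4 read -0.63 and -0.38 and were dim, with means of 7.06 and 7.72. The second of Srp72 read -0.51, the second of Sec61a2 -0.51 and the second of Sec24b, also dim (mean 7.87), 0.43. All 4 other Surf4 probe sets were lower as well, from -0.29 to -0.32, as were 3 of the 4 others of Lman1. The other probe set did not pass for Ssr3 (-0.038), Spcs2 (-0.022), Sec24a (-0.15), Sar1a (-0.080), Srp9 (0.073) and Ostc (-0.17, a dim one with a mean of 6.64).

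Another probe set was called for 8 of the genes that did not pass by their brightest one. For Rpn1, 4 of 5 other probe sets were lower, from -0.11 to -0.18. Sec24c had a dimmer probe set at -0.50, Stt3a one at -0.42, Sec63 one at -0.20 and Srp14 one at -0.12, and Sec61a1 one at -0.32. Copg1 had one at 0.28 and Sec62 one at 0.16. With the mean of all probe sets in place of the brightest, Sec24c was lower (-0.23, limma adjusted p = 0.00809), Arcn1 changed sign without passing (-0.058, adjusted p = 0.217), Sec24a was close to 0 (0.0013, 0.988), and Spcs2 (-0.12, 0.0506) and Ssr3 (-0.074, 0.162) did not pass. Stt3a (-0.19, 0.00234) and Copg1 (0.16, 0.00467) passed under that setting.

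**Figure D5:**
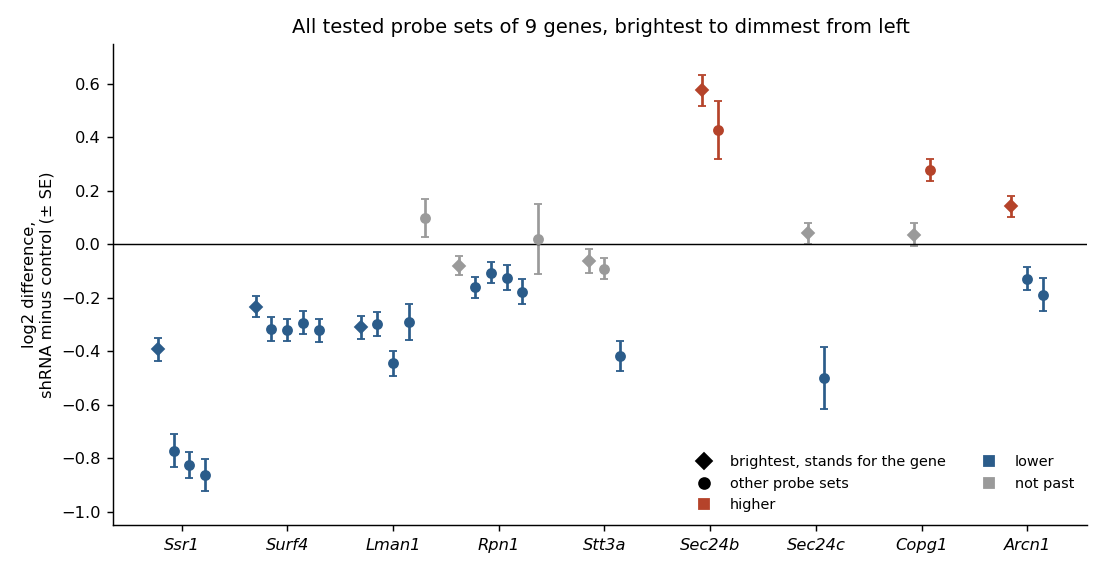
Difference in log2 signal (shRNA minus control, vertical axis, bars ± SE, 3 arrays a group) for every tested probe set of 9 genes, from brightest to dimmest, coloured by the limma call. All Ssr1 and Surf4 probe sets are lower, while the Arcn1 probe sets lie on both sides of 0.

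Other genes of the pathway moved in both directions. For the lists that follow, the shares over all genes tested were 35.7% higher and 22.8% lower. Other translocation and membrane insertion genes split into 8 higher, 3 lower and 8 not past of 19 (median 0.11). They included Emc6 (0.36) and Emc2 (-0.30) of the ER membrane protein complex and Tram2 (-0.38), a relative of the translocating chain-associating protein. Of 29 other genes of the oligosaccharyltransferase and the lipid-linked glycan, 11 were higher and 10 lower (median 0.049). Mpdu1, needed for use of dolichol-linked mannose, rose by 0.95, and Alg11, a mannosyltransferase of the lipid-linked glycan, by 0.82, although its other probe set did not pass (-0.079). Magt1, a subunit of the STT3B form of the enzyme, fell by 0.58. N-glycan trimming and quality control had 9 genes higher, 1 lower and 6 not past of 16 (median 0.17). The mannosidases Man1a (1.29, 2.44-fold, limma adjusted p = 4.7e-07) and Man2a1 (1.06, 2.09-fold, 6.28e-08) rose, as did the glucosidase Mogs (0.62), and Man1a2 fell (-0.27). Man1a2 was chosen after its value was seen.

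Other COPII and ER exit genes split into 8 higher, 8 lower and 13 not past of 29 (median -0.0042). Trappc9, a subunit of a TRAPP tethering complex, fell by 1.63 (3.10-fold, limma adjusted p = 3.01e-10) by its brightest probe set, while the other did not pass. Ykt6, a SNARE of ER-to-Golgi and later fusion steps, fell by 1.10 (2.14-fold), and its other probe set read -1.36. Trappc2 fell by 0.58. Other COPI, ARF and p24 genes numbered 22, with 5 higher and 8 lower (median -0.040). Copg2, the paralog of Copg1 in coatomer, fell from 11.17 to 9.62 (difference -1.55, 2.93-fold, limma adjusted p = 1.82e-09), and the p24 genes Tmed3 (-1.10, 2.14-fold) and Tmed8 (-0.94) fell too.

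Among 12 tested transcription factors known to act on secretory genes, 4 rose, 6 fell and 2 did not pass. Tfe3, the factor tied to the element printed above, rose by 0.60 (SE 0.047, limma adjusted p = 3.16e-07). Xbp1, an effector of the unfolded protein response, fell from 12.44 to 11.94 (difference -0.50, SE 0.047, limma adjusted p = 1.73e-06), and all 4 of its probe sets were lower. Creb3l1, which drives secretory genes in matrix-producing cells, fell by 0.78 (SE 0.077, limma adjusted p = 2.37e-06). The arrays do not separate the spliced, active Xbp1 RNA from the unspliced one. Atf6 did not pass by its brightest probe set (0.054), while 1 of its 2 other probe sets was higher (0.17, limma adjusted p = 0.00463). Its relative Atf6b (0.39) and Creb3 (0.23) rose.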

How the data were processed

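RNA of 3 control and 3 LncMyoD shRNA samples was measured on 45101 probe sets. The authors deposited log2 signals, 1 column per sample (0 columns without a sample). PLIER and MAS5 are named per the submitters' processing notes, without roles; the log2 scale was read from the value range, while background correction and normalization were not given in the sources used here. Probe sets were named from the platform annotation (34945 with 1 symbol, 932 with several, 9224 with none). The 64 control probe sets and the 40% with the lowest mean were left out. limma 3.58.1 (R 4.3.3, lmFit, eBayes with a variance trend) was fitted to the other 27023, with Benjamini-Hochberg adjustment and a threshold of 0.05. It was tested on simulated data in which few probe sets changed, by sizes above the median sizes seen here. Small or widespread changes were not covered by that simulation. Full values were given for up to 3 called genes with the smallest p per role and for the paired genes. Exceptions were Sec62, Sec63, Copb1 and Copb2, given by difference only, and Sec13, given in full outside that rule. Up to 3 genes were named per other list. Atf6, Atf6b and Creb3 were added after their values were seen. Members and lists were chosen with earlier results of these data known. Promoters came from RefSeq (GRCm38.p6). Alternatives covered the filter, centring, spike-in scaling, variance trend, replicate block, probe set choice and each array left out. The number of arrays limits the precision.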

Additional observations from a re-analysis of the deposited data

How the results depend on the processing

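Of 210 counts, shares and medians recomputed under 14 alternatives, 202 stayed within 1.5 times or the stated spread. All 11 paralog ratios kept their direction with the mean of a gene's probe sets. That of Sec23a over Sec23b could not change, since each has 1 probe set. Sec11a, Sec24d, Sar1b, Kdelr1, Kdelr3 and Copb1 also have 1 tested probe set, so only their partners could move. The genes that rose numbered 5, but 1 with arrays centred on the median of tested probe sets, 2 without the variance trend and 2 to 7 with 1 array left out. The genes that fell then numbered 30, 19 and 21 to 23. Calls lost without the variance trend were those of Srp9, Ssr2, Ssr3, Sec23a, Sec24a, Sar1a, Arcn1 and Tmed10. Centring moved the median difference of the secretory genes to -0.14 and that of all genes to -0.019. Without the signal filter 33.6% of probe sets passed, against 53.9%, since dim probe sets were added. The other translocation genes past the threshold fell from 11 to 7 without the variance trend; the cause was not tested. With the mean of a gene's probe sets Sec24c (-0.23) and Arcn1 (-0.058) reversed. Of 29 genes called, 19 (18 lower, 1 higher) were called in every setting that tested them, and 11 others passed in some setting. The deviations of same-numbered arrays correlated at -0.134, -0.0615 and 0.0307, and those of differently numbered arrays at -0.107 to 0.137. With 3 arrays a group these values cannot show whether the numbers pair the samples. With the replicate block 26 genes passed, 21 lower and 5 higher.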
